A study of Mus musculus with 6 samples.

Results

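Divergent gene pairs are places where a gene on the minus strand and a gene on the plus strand start close together and are transcribed away from each other. Pairs of protein-coding genes were taken from the mouse annotation (GENCODE M21, genome build GRCm38, called mm10 in the labels), with the outermost transcription start site (TSS) of each gene and a distance of 1 to 1000 bp between the 2 TSSs. The rule gave 778 pairs made of 1541 genes, of 21851 protein-coding genes in all. Of these genes 15 belonged to 2 pairs, so the pairs held 1556 TSS entries, and 30 pairs shared a gene with another pair. The comparison set was 17921 single-gene TSSs, with no other protein-coding TSS within 5 kb. No measured value entered the choice of the pairs. The median distance between the TSSs was 144 bp, with quartiles of 75 and 276 bp.

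The data were peak lists from Mint-ChIP, a multiplexed chromatin immunoprecipitation of native, MNase-cut chromatin, in wild-type (WT) mouse germinal center (GC) B cells. GCs were induced with an injection of sheep red blood cells (SRBC), spleens were collected on day 8, and each library came from 50000 sorted cells. The labels name the cells as GC centrocytes and the study's methods as GC B cells. The labels give no age, sex or strain, and the methods describe immunized mice as age- and sex-matched young adults without naming those of these libraries. There were 3 libraries for H3K4me3 and 3 for H3K4me1, with no other genotype or treatment. The label of each sample and the series design name the H3K4me3 and H3K4me1 antibodies, while the protocol text shared by all 6 samples names an H3K27Ac antibody.

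H3K4me3 is the trimethylated form of lysine 4 of histone H3 and marks the nucleosomes around active and CpG-rich start sites. H3K4me1, the monomethylated form, is typical of enhancers and of the outer edges of promoters. A divergent pair shares a promoter, often CpG-rich, from which transcription runs outward on both strands, and such promoters are known for housekeeping genes, DNA repair genes and histone genes.

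The H3K4me3 lists held 41936 to 46707 peaks over 49.4 to 60.2 Mb, and the H3K4me1 lists 11922 to 24136 peaks over 3.53 to 7.91 Mb. Replicate 1 had the most peaks for both marks. The files give no read depth, so a base outside a peak was only not called at the depth of its library. H3K4me3 lay over the TSS in 3 of 3 libraries for 9 of 10 B cell and GC B cell markers, among them Pax5 and Bcl6, and in 1 of 3 for the remaining one, Mybl1. It did so for 0 of 5 T cell, 0 of 5 myeloid and 0 of 5 erythroid markers. Among these 15 markers, Cd14 and Hbb-bt had a peak over the TSS in 1 library each, and the others in none.

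The intervals between the TSSs of pairs with a textbook divergent promoter are shown first, because their H3K4me3 ranged from a peak in every library to none. Each is the plus strand of GRCm38 between the 2 TSSs, from RefSeq, with the minus-strand gene on the left. Capitals mark a match, on either strand, to one of 9 motifs described with the motif counts below. Lower-case letters carry no match.
Recql4/Lrrc14: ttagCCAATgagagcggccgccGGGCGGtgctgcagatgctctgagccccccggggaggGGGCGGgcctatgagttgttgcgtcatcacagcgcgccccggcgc
Hspd1/Hspe1: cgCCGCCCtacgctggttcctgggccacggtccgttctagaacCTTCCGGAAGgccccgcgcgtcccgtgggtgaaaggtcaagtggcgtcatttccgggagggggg
Rad51c/Tex14: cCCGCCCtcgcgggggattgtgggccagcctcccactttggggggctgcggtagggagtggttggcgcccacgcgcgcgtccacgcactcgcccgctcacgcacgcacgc
Col4a4/Col4a3: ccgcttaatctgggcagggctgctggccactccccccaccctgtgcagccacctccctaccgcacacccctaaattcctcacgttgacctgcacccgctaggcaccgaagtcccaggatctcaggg
Polh/Xpo5: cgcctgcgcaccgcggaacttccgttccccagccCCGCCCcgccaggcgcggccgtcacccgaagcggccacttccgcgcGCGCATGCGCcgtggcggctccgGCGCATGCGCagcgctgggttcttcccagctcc
Mrps12/Sars2: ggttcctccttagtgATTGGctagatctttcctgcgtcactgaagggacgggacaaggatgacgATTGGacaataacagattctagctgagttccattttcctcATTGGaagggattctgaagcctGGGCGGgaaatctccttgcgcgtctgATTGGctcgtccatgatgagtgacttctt
Recql4/Lrrc14 (chr15:76710534-76710637), Polh/Xpo5 (chr17:46202646-46202781) and Mrps12/Sars2 (chr7:28741821-28742001) had H3K4me3 over both TSSs in 3 of 3 libraries. Hspd1/Hspe1 (chr1:55088025-55088131) and Rad51c/Tex14 (chr11:87404955-87405064) had it in 1 of 3. Col4a4/Col4a3 (chr1:82586850-82586975) had it in 0 of 3. GC content did not order them in the same way. It was 68.2% in Hspd1/Hspe1, 75.5% in Rad51c/Tex14 and 64.3% in Col4a4/Col4a3, against 49.2% in Mrps12/Sars2 and 77.2% in Polh/Xpo5. The Col4a4/Col4a3 interval held 5 CpG dinucleotides and no motif match, whereas Polh/Xpo5 held 23 CpG dinucleotides.

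H3K4me3 covered most TSSs of divergent pairs. In replicates 1, 2 and 3, 88.6%, 81.8% and 83.3% of the TSSs of pairs lay in an H3K4me3 peak, against 38.9%, 33.9% and 35.8% of single-gene TSSs. Every value for the pairs was above every value for the single genes. The means were 84.5% ± 3.57 (SD, n = 3 libraries) and 36.2% ± 2.49, a difference of 48.3 ± 1.19 percentage points. The exact two-sided sign-flip test over 3 libraries gave p = 0.25, the smallest p that 3 libraries allow, and that holds for every sign-flip p given here. Nothing in the labels says whether the 3 libraries of a mark came from separate animals, so the spread may be technical. Over all 3 libraries, 1212 of 1556 TSSs of pairs (77.9%) were covered in 3 of 3, against 5366 of 17921 single-gene TSSs (29.9%) and a background of 35.4% over all 21851 protein-coding genes.

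The interval between the TSSs was covered to the same extent as the TSSs. Of its bases, 88.6%, 81.7% and 83.9% were in H3K4me3 peaks in the 3 libraries. The same stretches upstream of single-gene TSSs, of the same lengths, were covered to 37.8%, 32.9% and 34.6%. The difference was 49.6 ± 1.04 percentage points (exact sign-flip p = 0.25). The 5 kb from a TSS into its own gene, called the gene side, was covered to 24.9%, 21.9% and 22.2% in pairs and to 15.2%, 12.9% and 13.4% in single genes. The 5 kb beyond the partner's TSS are the gene side of the partner, so the pairs had the same cover there. Single genes had 7.72%, 6.34% and 6.54% in the matching 5 kb upstream. The difference on this opposite side was 16.1 ± 0.913 percentage points, and on the gene side 9.17 ± 0.486 (exact sign-flip p = 0.25 for each).

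The peaks over the pairs were also wider. Their median width was 2444, 2205 and 2205 bp in the 3 libraries, against 2007, 1814 and 1827 bp at single-gene TSSs, a log2 ratio of 0.28 ± 0.0067. The median of the column that holds fold enrichment in the layout of the files was, for these peaks, 7.38, 6.53 and 6.59 at pairs and 6.51, 5.998 and 5.95 at single-gene TSSs, a log2 ratio of 0.15 ± 0.030. Both ratios were above 0 in 3 of 3 libraries (exact sign-flip p = 0.25). With the 10000 best peaks per library the log2 ratio of fold enrichment was 0.04. The program that wrote this column is not settled by the labels, so its values are compared here only within these files.

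H3K4me1 was scarce in the intervals. It covered 0.697%, 0.159% and 0.127% of their bases in the 3 H3K4me1 libraries, against 1.17%, 0.516% and 0.439% upstream of single-gene TSSs. Pairs were lower in 3 of 3 libraries, with a difference of -0.380 ± 0.0825 percentage points (exact sign-flip p = 0.25). In the gene-side 5 kb the order was the opposite, with 1.96%, 0.996% and 0.868% in pairs and 1.28%, 0.664% and 0.583% in single genes. At the TSS base the libraries did not share a direction. Pairs less single genes gave 0.1995, -0.1755 and -0.2007 percentage points there in replicates 1, 2 and 3. An H3K4me1 peak lay in the gene-side 5 kb in 3 of 3 libraries for 54 of 1556 TSSs of pairs (3.47%), beside 2.67% of single-gene TSSs and 2.82% of all protein-coding genes. That share was close to the background, whereas the share with no H3K4me1 in the gene-side 5 kb in any library was 61.6% of TSSs of pairs (95% Wilson interval 59.2 to 64.0) and 77.5% of single-gene TSSs (76.8 to 78.1). With a −log10 q of at least 5, the interval and gene-side differences of H3K4me1 kept their signs at -0.108 and 0.081 percentage points. On the log2 scale the ratio of gene-side cover of pairs to single genes was 0.74 ± 0.023 for H3K4me3 and 0.59 ± 0.023 for H3K4me1, a difference of 0.14 (exact permutation test over 20 assignments, two-sided p = 0.1, the smallest possible). With a 2 kb flank that difference was 0.03 (exact permutation p = 0.6). The marks were called in different peak formats, and the part of the calling in the contrast was not tested.

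**Figure D1:**
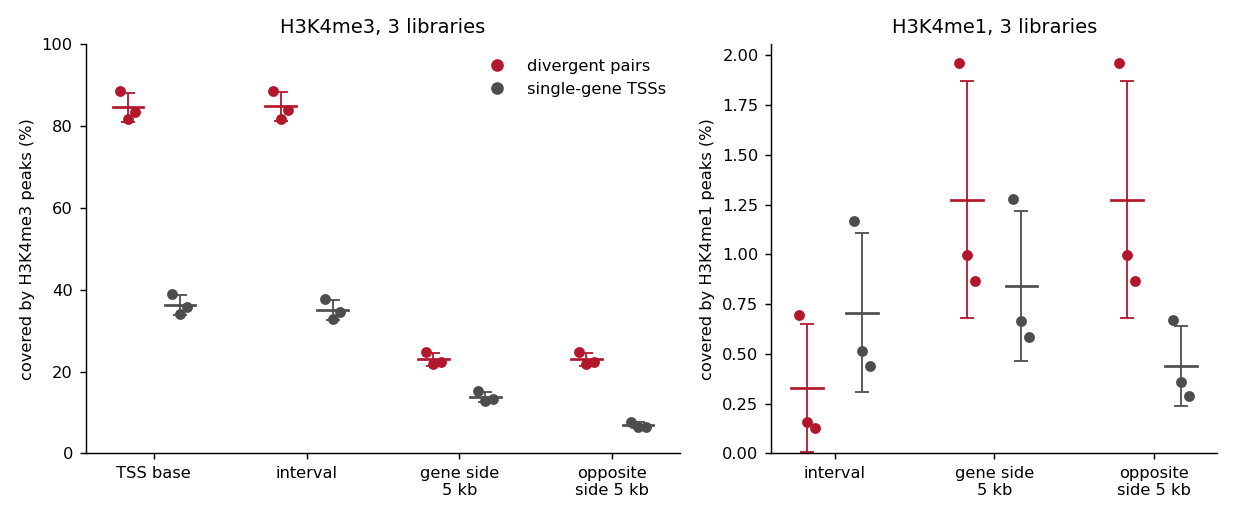
Percent of TSS bases, intervals and 5 kb flanks covered by H3K4me3 peaks (left) and of intervals and flanks covered by H3K4me1 peaks (right), for divergent pairs (red) and single-gene TSSs (gray). Points are libraries, bars the mean and SD. All 3 H3K4me3 points of the pairs lie above those of the single genes in every measure, and H3K4me1 is lower in the intervals of pairs in each library.

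CpG content moved with the pairs. The ratio of observed to expected CpG dinucleotides in the 1000 bp around a TSS had a median of 0.773 in pairs and 0.52 in single genes, and 84.9% against 43.6% of the TSSs had a ratio of at least 0.6. Within classes of CpG ratio the pairs stayed above the single genes from 0.3 upward. In the class from 0.6 to 0.7, 90.3% ± 2.16 of the TSSs of pairs and 62.4% ± 3.23 of single-gene TSSs were covered. The differences in the classes from 0.3 upward ran from 25.4 to 34.7 percentage points and were above 0 in 3 of 3 libraries in each. Below 0.3 the classes held 5 to 29 TSSs of pairs, and the differences ran from -1.86 to 15.01 percentage points. With single genes weighted to the CpG classes of the pairs, 57.8% ± 4.07 of single-gene TSSs were covered and the difference was 26.7 ± 0.907 percentage points. Under that weighting the gene-side difference was 1.31 ± 0.258 for H3K4me3 and -0.015 ± 0.0189 for H3K4me1, the latter above 0 in 1 of 3 libraries. In the highest class, 0.9 and over, cover was lower than in the class below for both groups, 78.8% ± 8.76 at pairs and 51.7% ± 5.34 at single genes.

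The distance between the TSSs also went with cover. Of the 286 pairs 1 to 100 bp apart, 84.6% had H3K4me3 over both TSSs in 3 of 3 libraries (Wilson interval 80.0 to 88.3), and of the 87 pairs 501 to 1000 bp apart, 49.4% (39.2 to 59.7). Wilson intervals cover counting error only. The bins between were at 75.5%, 68.8% and 76.1%, and their intervals overlapped. Cover of both TSSs asks more of a peak as the TSSs lie farther apart. At least 1 TSS was covered in 3 of 3 libraries in 85.7% of the closest pairs and 73.6% of the widest. In the bins between it was 78.8%, 74.3% and 84.1%. The mean cover of single TSSs within pairs was 90.9% ± 2.68 in the closest bin and 70.9% ± 6.04 in the widest. The median CpG ratio was 0.778 in the closest bin and 0.647 in the widest, and its part in the difference in cover was not tested. H3K4me1 covered 1.32% ± 0.959 of the widest intervals and 0.0471% to 0.393% of the others.

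**Figure D2:**
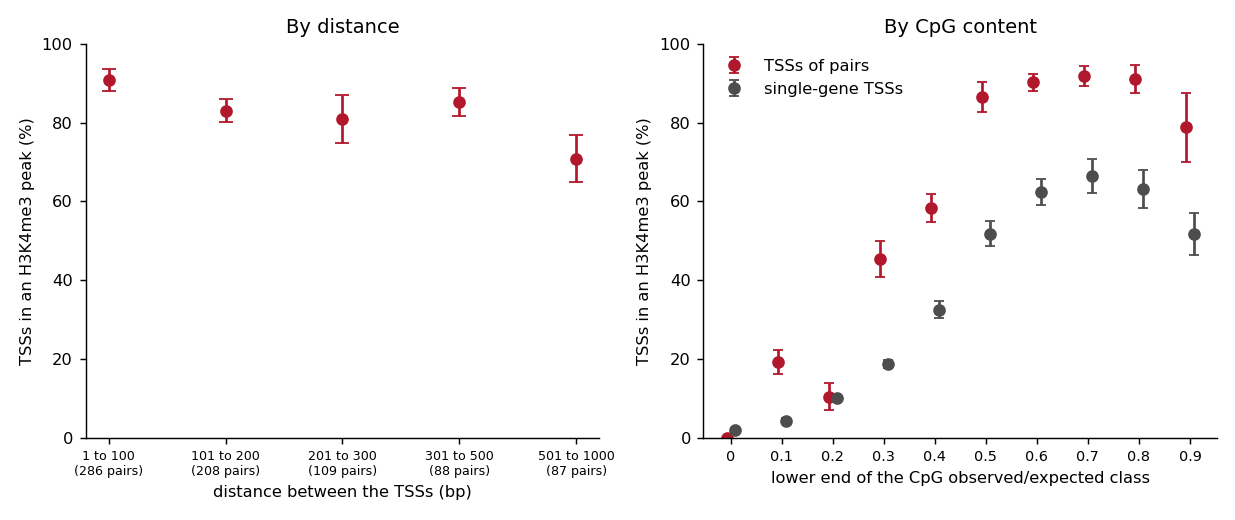
Percent of TSSs in an H3K4me3 peak by the distance between the TSSs of a pair in bp (left) and by the CpG observed/expected ratio around the TSS in classes of 0.1, the last one open (right). Points are means of 3 libraries with SD, for pairs (red) and single-gene TSSs (gray). Cover of pairs is 90.9% in the closest bin and 70.9% in the widest, without a steady fall between them. Pairs lie above single genes in every CpG class from 0.3 upward.

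The 2 TSSs of a pair were mostly covered, or left uncovered, together. In replicates 1, 2 and 3, a single peak spanned both TSSs in 674, 618 and 633 of the 778 pairs, and in 0 pairs did separate peaks cover the 2 TSSs. One TSS was covered without the other in 30, 36 and 30 pairs, and neither in 74, 124 and 115. Where one TSS was covered, the partner was covered in 96.4% to 98.0% of cases. The median peak width at pairs was 2205 to 2444 bp and the median distance between the TSSs 144 bp. At single-gene TSSs covered in 3 of 3 libraries, upstream stretches as long as the intervals of pairs covered in 3 of 3 were covered to 96.0% ± 0.722. That value is a mean over the bases of each stretch, at TSSs chosen by cover in 3 of 3 libraries. The partner share is cover of the partner TSS base within each library, over all pairs. The measures and the choice of TSSs differ, so the 2 values cannot be compared directly. A single peak over both TSSs was found in 3 of 3 libraries for 584 pairs (75.1%, Wilson 71.9 to 78.0), called marked pairs here. Neither TSS was covered in any library in 66 pairs, and 26 pairs had no H3K4me3 peak within 5 kb in any library.

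Some uncovered pairs lay in a gap between H3K4me3 peaks. With neither TSS covered, 8, 24 and 17 pairs had a peak within 500 bp on both sides in the 3 libraries (1.03%, 3.08% and 2.19%). The corresponding share of single-gene TSSs was 0.631%, 0.58% and 0.72%. The share was higher at pairs in each library, by the narrowest margin in replicate 1, where the pairs' Wilson interval ran from 0.522% to 2.02%. Both shares are over all pairs or all single-gene TSSs, with or without H3K4me3 nearby. H3K4me3 covered 81.8% to 88.6% of TSSs of pairs and 33.9% to 38.9% of single-gene TSSs. Gap shares among promoters with H3K4me3 were not compared. In all, 37 pairs had such a gap in at least 1 library, and 2 pairs, Spata1/Gng5 and Tbc1d10b/Mylpf, in 3 of 3. The mean CpG ratio of the 37 pairs had a median of 0.865, against 0.763 in the 741 pairs without a gap. Counting a peak within 500 bp as cover raised the share of pairs with both TSSs marked in 3 of 3 from 75.1% to 89.6%.

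Hspd1/Hspe1, which encodes both subunits of the mitochondrial chaperonin, had a gap in replicates 2 and 3. A peak of 3430 bp spanned the pair in replicate 1. In replicates 2 and 3 the interval was uncovered, while 915 and 1315 bp of the Hspd1 flank and 993 and 1145 bp of the Hspe1 flank carried H3K4me3. Both 5 kb flanks were thus marked in all 3 libraries. At Rad51c/Tex14 the mark was confined to one side in replicates 1 and 2. Rad51c, which acts in homologous recombination, had 913, 922 and 908 bp of H3K4me3 on its side. Tex14, a germ cell protein of intercellular bridges, had 0, 0 and 291 bp, and the TSSs themselves were covered in replicate 3 only.

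Where both TSSs were marked, the mark ended closer to the TSS inside each gene than it did in marked single genes. The TSSs compared here, 584 pairs and 5366 single genes, were chosen by H3K4me3 in the same libraries, so their H3K4me3 is a description. At single genes the median distance from the TSS to the end of the peak was 1176 ± 60.5 bp downstream and 671 ± 42.2 bp upstream. In pairs the peak reached 1046 ± 63.8 bp outward from the minus-strand TSS and 1034 ± 52.6 bp from the plus-strand TSS. Outward reach in pairs was therefore 136 ± 9.88 bp shorter than the downstream reach of single genes and 369 ± 15.4 bp longer than their upstream reach. In the bin 2000 to 2100 bp into the gene, 7.89% ± 1.60 of bases at marked pairs and 16.96% ± 2.35 at marked single genes were in H3K4me3.

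Among marked TSSs the gene side was less covered at pairs than at single genes. Gene-side H3K4me3 cover was 24.8% ± 1.47 at marked pairs and 30.2% ± 1.82 at marked single genes. So that choice and measurement used different libraries, TSSs were also chosen in 2 libraries and measured in the remaining one, in each of the 3 ways. Gene-side cover was then 24.7% ± 1.59 at pairs and 29.7% ± 2.13 at single genes, lower at pairs in 3 of 3 libraries, with a difference of -4.96 ± 0.633 percentage points. The opposite side was higher at pairs by 9.71 ± 0.245 percentage points, and the interval by 7.13 ± 2.34 (exact sign-flip p = 0.25 for each). Pairs were chosen by cover of both TSSs, and single genes by cover of their only TSS. The interval and the opposite side of a pair therefore border a second chosen TSS, unlike the upstream stretches of single genes. How much of these 2 differences comes from that unequal choice was not tested.

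H3K4me1 followed the same outline in its own libraries, which played no part in choosing the marked TSSs. Its gene-side cover was 1.38% ± 0.661 at marked pairs and 1.80% ± 0.821 at marked single genes, lower at pairs in 3 of 3 libraries (exact sign-flip p = 0.25). In the interval it was 0.347% ± 0.372 against 1.94% ± 1.07. H3K4me1 peak summits were found at 67.1, 34.9 and 32.9 per 1000 kb of gene side at marked pairs, against 84.3, 44.9 and 42.9 at marked single genes. Their median distance from the TSS was 992, 1154 and 1021 bp at pairs and 1363, 1390 and 1426 bp at single genes. The summits thus lay closer to the TSS at pairs in each library, with a difference of -337 ± 89.4 bp (exact sign-flip p = 0.25). Most of them, 81.1% to 84.9% at pairs and 82.8% to 84.7% at single genes, fell within an H3K4me3 peak of at least 2 of the 3 H3K4me3 libraries.

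**Figure D3:**
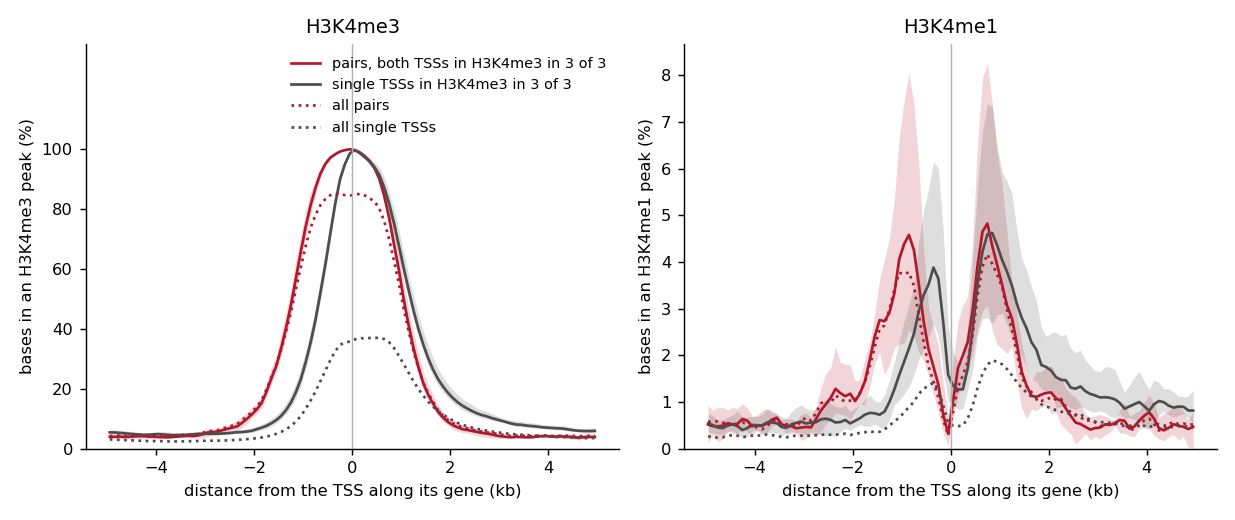
Percent of bases in an H3K4me3 peak (left) and in an H3K4me1 peak (right) in 100 bp bins by distance from the TSS along its gene in kb. Solid lines are TSSs covered by H3K4me3 in 3 of 3 libraries and dotted lines all TSSs, as means of 3 libraries, for pairs (red) and single genes (gray), and bands span the libraries. Each pair enters with both of its TSSs, each along its own gene, so both sides of a pair's promoter are averaged together and the symmetry of the lines of the pairs is by construction. H3K4me3 reaches farther downstream than upstream at marked single genes, and H3K4me1 is higher on either side of the TSS than over it in both sets.

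The sides of individual marked pairs differed, and the larger differences recurred between libraries. Among the 584 marked pairs, the plus-strand side had the more H3K4me3 in its 5 kb in 292 pairs in replicate 1. The side with more H3K4me3 in replicate 1 was the same in replicates 2 and 3 in 374 pairs (64.0%). Where the sides differed by more than 500 bp in replicate 1, this was so in 231 of 286 pairs (80.8%), above 1000 bp in 120 of 131 (91.6%), and above 2000 bp in 44 of 44 pairs (Wilson 92.0 to 100). In the pairs without another coding TSS within 5 kb, the same was found in 205 of 258, 105 of 115 and 36 of 36 pairs.

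More H3K4me1 lay on the side that held more H3K4me3. In the 374 pairs with the same order of sides in all 3 H3K4me3 libraries, H3K4me1 covered 173, 91.2 and 86.4 bp of the more marked flank in the 3 H3K4me1 libraries and 68.3, 33.6 and 25.5 bp of the less marked flank. Every H3K4me1 library had more on the more marked side. The more marked flank held 1760 bp of H3K4me3 and the less marked flank 882 bp. H3K4me1 relative to the length of H3K4me3 was not tested. In the 149 pairs whose sides differed by more than 500 bp of H3K4me3 in each library, the H3K4me1 values were 286, 141 and 144 bp against 73.9, 30.02 and 19.7 bp, a difference of 149 ± 55.2 bp (exact sign-flip p = 0.25). Without pairs that had another coding TSS within 5 kb, 130 pairs remained and the difference was 143 ± 52.6 bp.

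**Figure D4:**
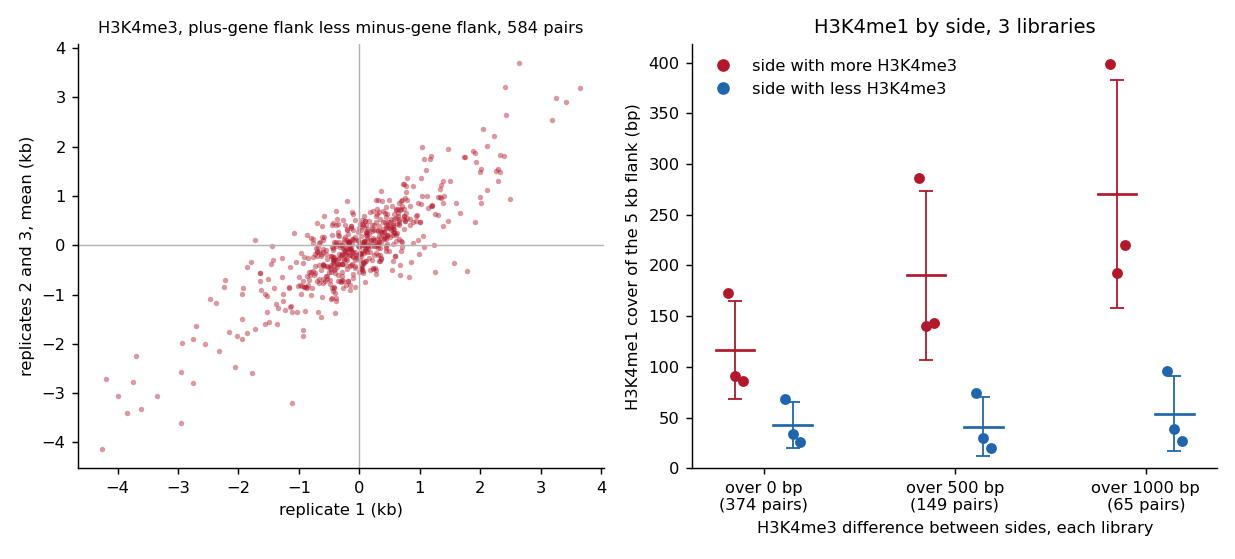
Left, H3K4me3 cover of the 5 kb flank on the plus-strand gene less that on the minus-strand gene in kb, in replicate 1 and as the mean of replicates 2 and 3, for 584 marked pairs (1 point each). Right, H3K4me1 cover in bp of the flank with more and with less H3K4me3, by the smallest H3K4me3 difference required in each library, as 3 libraries with mean and SD. All 44 pairs that differ by more than 2000 bp in replicate 1 keep the sign in replicates 2 and 3, and H3K4me1 is higher on the side with more H3K4me3 in all 3 libraries.

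The pairs with the widest H3K4me3 were lopsided. The peak over Tbc1d10c/Ppp1ca, 781 bp apart on chromosome 19, measured 8849, 7645 and 8408 bp. Tbc1d10c, a lymphocyte inhibitor of Ras and calcineurin signaling, had all 5000 bp of its flank covered in each library, and Ppp1ca, a catalytic subunit of protein phosphatase 1, had 2058, 1368 and 1405 bp. The CpG ratio was 0.162 at Tbc1d10c and 0.782 at Ppp1ca, so the long side was the CpG-poor one. At Mbd4/Ift122, 99 bp apart on chromosome 6, the peak measured 7037, 7097 and 7192 bp. Mbd4, a DNA glycosylase that acts on deaminated CpG sites, had 5000 bp in each library, and Ift122, of the intraflagellar transport machinery, had 747, 807 and 923 bp. H3K4me1 was found on the Mbd4 side only, with 1191, 239 and 663 bp. Tmed8/Samd15 had peaks of 6472, 9202 and 6105 bp, with 5000 bp on the Tmed8 side. Rnf121, a membrane-bound ubiquitin ligase, was paired with both Xndc1 and Xntrpc under 1 peak of 5674, 5218 and 7065 bp, with 4488, 4015 and 5000 bp on the Rnf121 side.

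Pairs marked at one TSS alone were rare. In 8 of 778 pairs one TSS was covered in 3 of 3 libraries and the other in 0 of 3. In the 4 longest of them the TSSs were 702 to 932 bp apart. At Ddx25/Pus3 (932 bp), the peak was 2113, 2063 and 1846 bp wide over Pus3, a tRNA pseudouridine synthase. Ddx25, a germ cell RNA helicase, had 0, 0 and 201 bp in its 5 kb. The peak ran through 84.6% to 91.1% of the interval and stopped short of the Ddx25 TSS. At Haghl/Ccdc78 (907 bp), Sirt6/Ankrd24 (838 bp) and Dok1/Loxl3 (702 bp) the minus-strand TSS was covered. Their peaks were 912 to 1734 bp wide, and 92 to 1057 bp of the other gene's 5 kb flank still carried H3K4me3. Sirt6 encodes a chromatin deacetylase and Dok1 an adaptor of tyrosine kinase signaling, while Loxl3 is a lysyl oxidase of the extracellular matrix. In the next 2 pairs the uncovered TSS lay in a local gap. Setd3/Ccnk (265 bp) had its peak over Ccnk, cyclin K, yet 3158, 4056 and 3857 bp of the flank of Setd3, an actin histidine methyltransferase, were in other H3K4me3 peaks. At Lrrc75a/Mmgt2 (312 bp) the uncovered Lrrc75a had 2671, 3456 and 2496 bp.

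The pairs with most H3K4me1 in their flanks had more of it on the side of the wider H3K4me3. At Cep57/Fam76b (609 bp), Cep57, a centrosomal protein, had 732, 621 and 802 bp of H3K4me1 and 4218, 2766 and 2337 bp of H3K4me3, and Fam76b had 313, 215 and 0 bp of H3K4me1. At Cntrob/Trappc1 (205 bp), Trappc1, of the TRAPP vesicle tethering complex, had 1001, 685 and 508 bp of H3K4me1, against 0, 0 and 218 bp at Cntrob, a centriole protein. Sdhd, a membrane subunit of succinate dehydrogenase, had 1035, 1197 and 347 bp, against 0, 0 and 222 bp at its partner Timm8b, a chaperone of mitochondrial import. At Dedd2/Zfp526 the Dedd2 side had 346, 598 and 728 bp, and the Zfp526 side had H3K4me1 in 1 library.

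Brd2/H2-DMa, 232 bp apart on chromosome 17, was among these pairs and was the exception. H2-DMa, a chaperone of peptide loading on MHC class II, had 690, 560 and 1074 bp of H3K4me1 in its flank, against 0, 200 and 0 bp at Brd2, a bromodomain reader of acetylated histones. H3K4me3 was wider on the Brd2 side, with 5000, 4216 and 5000 bp against 3113, 2478 and 2016 bp. The peak of replicates 1 and 3 was 8203 and 7067 bp wide, while in replicate 2 a gap over the Brd2 TSS left a peak of 1386 bp over H2-DMa.

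Among the 26 pairs with no H3K4me3 peak within 5 kb in any library, the 5 closest with 2 named genes were Best1/Rab3il1 (36 bp), Tmie/Als2cl (61 bp), Slc30a3/Dnajc5g (70 bp), Il11/Tmem190 (78 bp) and Plcz1/Capza3 (100 bp). Best1 is a chloride channel of the retinal pigment epithelium, Tmie acts in hair cell mechanotransduction, Slc30a3 loads zinc into synaptic vesicles, and Plcz1 and Capza3 act in sperm. Of their partners, Rab3il1 is an exchange factor for Rab GTPases, Als2cl a relative of alsin, Dnajc5g a DnaJ co-chaperone, Il11 a cytokine and Tmem190 a transmembrane protein. CpG ratios were 0.0998 at Best1, 0.0995 at Il11, 0.323 at Plcz1 and 0.375 at Slc30a3, but 0.691 at Tmie. None of the 5 had an H3K4me1 peak within 5 kb in any library.

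DNA repair genes gave the longest list among the pairs. All gene lists here were chosen with earlier results of these data known and are described by counts alone. Of 126 DNA repair genes, 38 belonged to a divergent pair (30.2%), beside 7.05% of all protein-coding genes. H3K4me3 covered the TSS in 3 of 3 libraries for 33 of the 38 (86.8%), beside 77.9% of all genes in pairs and 79.4% of the 68 repair genes with a single TSS. The closest were Lig4, the ligase of end joining, 21 bp from Abhd13, Fancd2 of the Fanconi anemia pathway, 30 bp from Emc3, Dclre1a, a crosslink repair nuclease, and Xpc, which recognizes distorted DNA. Each had the mark in 3 of 3 libraries. The exceptions were Apex2 with 0 libraries, Rad51c with 1, and Xrcc1, Rad17 and Wrn with 2 each. Apex2, an AP endonuclease, nonetheless had a mean of 1964 bp of H3K4me3 in its gene-side 5 kb.

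H3K4me1 in the gene-side 5 kb varied among the repair genes in pairs. It was found in 0 of 3 libraries for 19 of the 38 genes (50%), beside 61.6% of all TSSs of pairs, and in 3 of 3 for 4 genes (10.5%), beside 3.47%. The 4 genes were Xpc, Mbd4, Brca1 and Rpa1, a subunit of the single-strand binding complex. Xpc had 264, 198 and 369 bp and Rpa1 368, 437 and 211 bp, with 0 bp on the side of their partners Lsm3 and Smyd4 in all 3 libraries. Brca1/Nbr1 (270 bp) joins a homologous recombination factor to an autophagy receptor. Its peak was 3151, 2756 and 2815 bp wide, and H3K4me1 of 295, 298 and 226 bp lay on the Brca1 side, with 0 bp on the Nbr1 side in all 3 libraries. Atm/Npat (307 bp) joins the double-strand break kinase to an activator of histone genes. Its peak was 4829, 3448 and 2192 bp wide and no H3K4me1 lay in either flank in any library. Mcm4/Prkdc (489 bp), a replicative helicase subunit and the catalytic kinase of end joining, had peaks of 3217, 2724 and 2169 bp, and its only H3K4me1 was 214 bp on the Mcm4 side in replicate 1. Polh/Xpo5 (137 bp), which pairs the translesion polymerase of somatic hypermutation with an exporter of precursor microRNAs, had 3193, 2561 and 3579 bp, with H3K4me1 of 318 bp on the Xpo5 side in replicate 2 and 290 bp on the Polh side in replicate 3. Recql4/Lrrc14 (105 bp), with a RecQ helicase, was narrower, at 1989, 1320 and 1400 bp, and the lowest of the 3 fold enrichments at its peak was 4.88. H3K4me1 of 412 bp lay on its Lrrc14 side in replicate 1 alone.

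Genes of mitochondria and protein synthesis were also frequent in pairs. Of 78 mitochondrial ribosomal protein genes, 21 were in pairs (26.9%) and 19 of these were covered in 3 of 3 libraries (90.5%), beside 36 of 40 (90.0%) of the listed genes with a single TSS. Mrpl46 and Mrps11 formed a pair of their own, 30 bp apart, with both TSSs covered in every library. Of 46 genes of respiratory complex I and its assembly, 13 were in pairs (28.3%) and 12 were covered in 3 of 3 (92.3%), beside 18 of 22 (81.8%) with a single TSS. Among the 12 was Ndufs1, 3 bp from Eef1b2. The exception, Ndufa1, was covered in 2. Of 37 aminoacyl-tRNA synthetase genes 6 were in pairs (16.2%), 5 of them covered in 3 of 3 (83.3%), the same share as 20 of 24 with a single TSS. Of 50 proteasome genes 8 were in pairs (16.0%), all 8 covered in 3 of 3, beside 26 of 34 (76.5%) with a single TSS. Differences between pairs and single TSSs within a list were not tested. Mrps12/Sars2 (182 bp) combines a mitochondrial ribosomal protein and the mitochondrial seryl-tRNA synthetase, and its peak was 1694, 1639 and 1672 bp wide.

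Core histone genes were partly covered. Of 78 core histone genes, 27 were in pairs (34.6%), mostly an H2A gene beside an H2B gene. H3K4me3 covered 16 of the 27 in 3 of 3 libraries (59.3%) and 6 in none, and it covered 7 of the 14 core histone genes with a single TSS in 3 of 3 (50%). Both genes of Hist2h2ac/Hist2h2be (239 bp) and of Hist1h2an/Hist1h2bp (243 bp) were covered in 3 of 3. Hist1h2ap/Hist1h2br (236 bp), Hist1h2bq/Hist1h2ao (268 bp) and Hist1h2ba/Hist1h2aa (306 bp) were covered in 0 of 3. Histone genes have near-identical copies, and reads that fit several copies could be lost or misplaced, so these values are uncertain.

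Other lists were small in pairs. Of 465 genes in the zinc finger list 27 were in pairs (5.81%), with 19 covered in 3 of 3 libraries (70.4%, beside 54.9% of the 399 with a single TSS) and 2, Zfp654 and Zbtb1, in none. Both of these had H3K4me3 in their gene-side 5 kb, with means of 889 and 3577 bp. The 19 include Zbtb8os, which is no zinc finger gene despite its symbol. Of 45 genes in the collagen list 3 were in pairs. Col4a3 and Col4a4, chains of basement membrane collagen, were covered in none, and Col4a3bp, a ceramide transporter and no collagen despite its symbol, was covered in 3 of 3. Of the 37 with a single TSS, 0 were covered in 3 of 3. Of 69 protocadherin genes and 12 antigen processing genes, 0 were in pairs. Of 64 B cell and GC genes 2 were in pairs (3.12%), H2-DMa with Brd2 and Mef2b, a GC transcription factor, with Rfxank, a regulator of MHC class II genes. Both were covered in 3 of 3 libraries, as were 44 of the 59 (74.6%) with a single TSS.

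Of a list of 20 well-known divergent pairs, 10 met the distance rule. The other 10 had outermost TSSs that overlapped head to head or lay more than 1000 bp apart. Tap1/Psmb9, of antigen presentation, and Sirt3/Psmd13 met it with 1 of their other annotated TSSs, at 38 and 99 bp. Both genes of each of these 2 pairs had H3K4me3 over the outermost TSS in 3 of 3 libraries.

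The sequence around the TSS differed between pairs and single genes in some motifs. Windows from 250 bp before to 50 bp after each TSS were searched for 9 letter strings on both strands, and the windows of a pair overlap. The ETS string CCGGAAG was in 28.1% of windows of pairs, 9.41% of single genes, 15.3% of single genes weighted to the CpG classes of the pairs, and 11.1% of all protein-coding TSSs. Among marked TSSs it was in 31.9% of pairs and 20.7% of single genes. The YY1 string AAGATGGCG was in 5.33%, 1.41%, 2.49% and 1.78% in the same order. The GC box GGGCGG was in 68.1% of pairs and 43.0% of single genes, but in 68.4% of single genes after CpG weighting. NRF1 (GCATGCGC) was in 7.07% of pairs and 5.56% of weighted single genes, and CRE (TGACGTCA) in 4.95% and 3.50%. CCAAT, the letters of the NF-Y site, was in 44.0% and 37.0%, the E-box CACGTG in 9.90% and 10.4%, and the ZNF143 string ACTACAATT in 0.964% and 0.569%. Shares over all protein-coding TSSs were 3.80% for NRF1, 2.50% for CRE, 38.8% for CCAAT, 44.9% for the GC box, 7.78% for the E-box and 0.526% for ZNF143. TATAAA was rarer in pairs, at 4.31%, than in single genes, at 13.5%, weighted single genes, at 7.27%, and all protein-coding TSSs, at 12.5%. A match describes letters and shows no binding.

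The same strings appear in the intervals printed above. Hspd1/Hspe1 holds ETS matches on both strands that overlap in a palindrome. Polh/Xpo5 holds 2 NRF1 palindromes, each of which matches on both strands. Mrps12/Sars2 holds 4 CCAAT matches, all on the minus strand, and a GC box. Rad51c/Tex14 holds a GC box at its Rad51c end.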

How the data were processed

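Peak lists of WT GC B cells were used, 3 for H3K4me3 (broadPeak) and 3 for H3K4me1 (narrowPeak), each called by the authors on 1 library. Per the labels, the reads were processed with BWA, Picard, HOMER and Genrich on mm10. Versions, control and threshold are not given in the sources used here. Genrich is a peak caller, but the files, broadPeak ones included, have the layout that MACS2 writes, so which program called the peaks is not settled. Columns are named after the MACS2 layout: fold enrichment over background, −log10 p-value and −log10 q-value as deposited by the authors, an integer score that the authors derived from the q-value and that was not used, and, for H3K4me1, the summit position. The lowest −log10 q-value was 1.02 to 1.14 for H3K4me3 and 1.31 to 1.32 for H3K4me1. The authors gave no read counts, so depth is unknown.

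Pairs and single genes were taken from GENCODE M21 basic, and cover was computed per library as bases in peaks (Python 3.11.15, numpy 2.4.6, pandas 2.3.3). Differences were taken within each library and tested with exact sign-flip tests, and marks were compared by an exact permutation test. CpG ratios and sequences came from the RefSeq GRCm38 genome. Programs were tested on simulated data. Named pairs were the textbook pairs that met the rule, the 5 widest, up to 6 marked on one side (longest distance first, 1 with a predicted gene skipped), the 5 with most H3K4me1 flank cover by their lowest library, the 5 closest without H3K4me3 (2 with a predicted gene skipped), and members of the gene lists with exceptions. Pairs named for gaps, repair genes named for H3K4me1 and the exceptions within lists were chosen after their values were seen. One textbook pair that met the rule is not reported here. Members and lists were chosen with earlier results of these data known. Alternatives were other TSS choices, distances, flanks, peak thresholds, CpG weighting, leaving out each library and the replicate block.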

Additional observations from a re-analysis of the deposited data

Results flagged for a closer look

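One result stood out because the 2 marks moved in opposite directions in the same intervals. Between the TSSs of divergent pairs every H3K4me3 library was higher than at single genes, by 49.6 percentage points on average, and every H3K4me1 library was lower, with a mean difference of -0.380. The effects were 50.02 percentage points apart. This difference was not tested. The marks were called in different peak formats, and the totals they cover differ. H3K4me1 covered only 0.697%, 0.159% and 0.127% of the interval bases of pairs in replicates 1, 2 and 3. Its lower value thus rests on very little cover, and how many pairs contributed to it is not given here. At the TSS base the lower H3K4me1 of pairs did not hold in every library. Replicate 1 was higher at pairs there, by 0.1995 percentage points.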

How the results depend on the processing

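The share of pairs with H3K4me3 over both TSSs in 3 of 3 libraries moved with the peak threshold. It was 75.1% as reported, 60.7% with a −log10 q of at least 5, 45.8% with the 10000 best peaks per library, 78.3% for pairs up to 500 bp apart and 89.6% when a peak within 500 bp counted. Leaving out 1 library gave 75.8% to 79.3%. The gene-side difference changed sign in some settings. For H3K4me1 it was 0.434 as reported and -0.015 percentage points with CpG weighting. With TSSs limited to those in H3K4me3 in 3 of 3 libraries, an alternative chosen after seeing the data, it was -0.422, and -0.353 with CpG weighting as well. For H3K4me3 these 2 settings gave -5.39 and -5.29 percentage points, from 9.17 as reported. The same 2 settings took the H3K4me3 interval difference from 49.6 to 3.999 and 3.38, since they remove uncovered TSSs by construction, the opposite-side difference from 16.1 to 9.43 and 9.71, and the H3K4me1 interval difference from -0.380 to -1.60 and -1.14. The latter setting took the contrast between the marks from 0.14 to 0.06. CpG weighting of all TSSs took the H3K4me3 differences from 48.3 to 26.7 (TSS), from 49.6 to 27.9 (interval) and from 9.17 to 1.31 (gene side). A −log10 q of at least 5 took the log2 ratio of fold enrichment from 0.15 to 0.08, the H3K4me1 differences to -0.108 (interval) and 0.081 (gene side), and the contrast between the marks to 0.42. With the 10000 best peaks the fold enrichment ratio was 0.04, the H3K4me1 gene-side difference 0.263 and the contrast 0.55. A flank of 2 kb gave 23.1 and 36.9 for H3K4me3 on the gene and opposite sides, 1.04 for H3K4me1 and 0.03 for the contrast. The cause of the moves without a stated one was not tested. Of 125 alternatives in all, 98 kept their sign and stayed within 1.5 times the reported value, 22 kept their sign but moved further, and 5 changed sign. The 98 included all 33 values that left out a library. With the replicate number as a block the contrast between the marks was 0.14 (exact sign-flip p = 0.25), the same value. The deviations of same-numbered libraries of the marks at the pairs correlated at r = 0.127, 0.0481 and 0.0229 for replicates 1, 2 and 3. Only the first was above 0.1, and H3K4me3 replicate 2 correlated more with H3K4me1 replicate 3 (0.0719) than with its own number, so the numbers were not taken to pair the libraries. No p could pass 0.05 in this design, so directions in 3 of 3 libraries are the only check of stability.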
